A study of Mus musculus with 4 samples.

Results

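Effector genes of cytotoxic and type 17 lymphocytes were followed in the tumors of 4 mice, named by a list of gene symbols rather than by a threshold on measured values. The 9 genes, of 21861 features counted, were Gzma, Gzmb, Prf1, Nkg7, Ifng, Il17a, Il23r, Il2rb and Ncr1. All 9 were listed as features in each of the 4 libraries, but no transcript of Il23r was counted in the cells kept from mouse 6 and mouse 7. They were described in T cells, taken as cells with transcripts of Cd3d, Cd3e or Cd3g, and in natural killer (NK) cells without these transcripts, at postnatal day 43 (P43) against P70 and per mouse.

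The mice model high-grade glioma with MYCN (HGG-MYCN) and all carry hGFAP-cre, floxed alleles of the gene for p53 and the lsl-MYCN transgene (hGFAP-cre::TP53Fl/Fl::lsl-MYCN). The human GFAP promoter drives Cre in radial glia and their progeny, a lineage that does not give rise to lymphocytes. Mouse 4 and mouse 5 were taken at 43 days and mouse 6 and mouse 7 at 70 days. No tumor-free control brain and no second genotype were among them, and each library is from 1 animal. The paper describes the harvested material as olfactory bulb or tumor tissue, and how much surrounding tissue each library held was not measured. Tumors were dissociated, viable cells were sorted, and the molecules of each cell were counted as unique molecular identifiers (UMIs) by droplet-based 3′ sequencing.

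Libraries held 1739 to 3693 barcodes and 13106786 to 40621958 UMIs, of which 1456 to 3469 cells per mouse were kept, with median UMIs per cell from 1419 (mouse 4) to 10450 (mouse 7). Outside the tumor cell clusters lay 1017 of 3319, 1110 of 1456, 2211 of 2731 and 426 of 3469 kept cells of mice 4, 5, 6 and 7. The part of this difference in the age comparisons was not tested. Of 11834 barcodes, 15 occurred in more than 1 library, 2 of them in the lymphocyte cluster. Outside the tumor cell clusters, transcripts of 4 Y-linked genes summed to 223 counts per 1000000 UMIs (CPM) in mouse 4, which is labelled female, and to 0.616 CPM in mouse 5, which is labelled male. The levels were 187 CPM in mouse 6 (labelled male) and 0 in mouse 7 (labelled female), so both P43 libraries went against their sex label while each age held 1 library with and 1 without these transcripts. Age labels could not be checked in this way, and every age comparison below rests on the labels as given.

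Cytotoxic lymphocytes kill by releasing perforin, which opens the target membrane, and granzymes, proteases that enter through it, both stored in granules whose membrane carries NKG7. NK cells hold this program ready and carry the activating receptor NKp46, encoded by Ncr1, and the IL-2 and IL-15 receptor chain encoded by Il2rb, whereas T cells acquire it after activation. Type 17 lymphocytes, among them helper T cells and γδ T cells, respond to IL-23 through the receptor encoded by Il23r and secrete IL-17A, which recruits neutrophils by acting on epithelial, stromal and myeloid cells.

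Of 10975 kept cells, 327 fell into 1 lymphocyte cluster, with 62, 139, 104 and 22 cells in mice 4, 5, 6 and 7. The clustering left the 9 genes out of its variable genes. Within this cluster 239 cells had at least 1 UMI of Cd3d, Cd3e or Cd3g and were taken as T cells, 44, 126, 53 and 16 per mouse. A further 68 cells had no Cd3 UMI and at least 1 UMI of Klrb1c, Klre1, Klra4, Klra7, Klra8, Klra9, Klri2 or Eomes and were taken as NK cells, 12, 9, 46 and 1 per mouse. Outside the cluster, 0.573% of 10648 cells had a Cd3 UMI and 0.995% had a UMI of the NK list.

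Both labels were checked against summed levels of marker lists, which hold none of the 9 genes but in part the genes of the gates themselves. The T cell list (Cd3d, Cd3e, Cd3g, Lck, Cd2, Cd5, Cd6, Skap1 and Bcl11b) summed to between 3647 and 5060.2 CPM in the T cells of the 4 mice and to between 604 and 824 CPM in the NK cells of mice 4, 5 and 6. The NK list summed to between 2493 and 3613 CPM in those NK cells. In T cells the NK list stood at 454, 134, 83.6 and 320 CPM in mice 4 to 7, and 13, 10, 10 and 4 T cells per mouse held an NK list UMI. Of the markers of other cell types in T cells, the microglia list lay between 23.9 and 125 CPM and the neutrophil list between 0 and 25.1 CPM. The list of plasmacytoid dendritic cells stood at 279, 287, 556 and 746 CPM in mice 4 to 7, higher at P70. Most of this came from Bst2 (183, 225, 506 and 639 CPM), a gene also induced by interferon. Ccr9 (8.73, 35.9, 16.7 and 53.3 CPM), Pacsin1 (61.1, 21.5, 33.4 and 53.3 CPM) and Cox6a2 (26.2, 4.79, 0 and 0 CPM) of that list were detected as well. Siglech, Ly6d and Klk1 were at 0. The list of innate lymphoid cells lay between 802 and 1372 CPM, mostly through Il7r, Rora and Gata3, which T cells express as well. The part of these transcripts in the age comparisons was not tested. The reporter transcripts of tumor cells stood at 213 CPM in mouse 7 against 20.9 to 64.6 CPM in the other mice. Among T cells 9, 27, 17 and 2 held at least 2 UMIs of markers of other classes.

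T cells made up 1.33%, 8.65%, 1.94% and 0.461% of kept cells in mice 4, 5, 6 and 7. NK cells made up 0.362%, 0.618%, 1.68% and 0.0288%. Neither share separated the ages, which differed by -3.79 percentage points for T cells (P70 minus P43, p = 0.667) and 0.367 points for NK cells (p = 1, exact two-sided permutation tests over 4 mice, in which 0.333 is the smallest p possible). The T cells of a mouse gave 114534, 417789, 239348 and 18774 UMIs, so that a count of 0, taken as fewer than 3 UMIs, allows up to 26.2, 7.18, 12.5 and 160 CPM. Mouse 7 therefore contributed little for weakly expressed genes.

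Il17a was called with age in T cells, and the granzyme genes Gzma and Gzmb between NK and T cells, none of them in every alternative. Il23r was too low to be tested. The promoters of these 4 genes are shown. Each is the 250 bases before the start of the RefSeq gene in GRCm38.p6, written 5′ to 3′ on the strand of the gene. Capitals mark matches to AGGTCA (or TGACCT on the other strand), a half-site bound by nuclear receptors, and to TGTGGT (or ACCACA), the core bound by Runx factors. The window of Il17a lies at chr1:20730655-20730904 (+), that of Il23r at chr6:67491856-67492105 (-), that of Gzma at chr13:113100982-113101231 (-) and that of Gzmb at chr14:56262335-56262584 (-).
Il17a: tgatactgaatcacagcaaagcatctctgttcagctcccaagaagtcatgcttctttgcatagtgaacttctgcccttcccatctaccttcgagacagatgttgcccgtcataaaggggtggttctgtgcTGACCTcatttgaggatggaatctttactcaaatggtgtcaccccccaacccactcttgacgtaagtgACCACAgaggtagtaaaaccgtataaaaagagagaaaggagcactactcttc
Il23r: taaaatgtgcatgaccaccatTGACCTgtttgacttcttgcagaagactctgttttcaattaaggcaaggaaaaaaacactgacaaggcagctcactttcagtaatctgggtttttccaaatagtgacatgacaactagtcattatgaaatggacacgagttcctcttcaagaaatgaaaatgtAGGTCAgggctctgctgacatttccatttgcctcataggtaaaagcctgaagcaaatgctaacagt
Gzma: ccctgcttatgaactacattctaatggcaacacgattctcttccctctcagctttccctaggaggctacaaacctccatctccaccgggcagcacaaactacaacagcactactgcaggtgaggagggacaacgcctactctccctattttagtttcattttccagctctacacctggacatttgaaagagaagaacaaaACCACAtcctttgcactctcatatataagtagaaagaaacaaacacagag
Gzmb: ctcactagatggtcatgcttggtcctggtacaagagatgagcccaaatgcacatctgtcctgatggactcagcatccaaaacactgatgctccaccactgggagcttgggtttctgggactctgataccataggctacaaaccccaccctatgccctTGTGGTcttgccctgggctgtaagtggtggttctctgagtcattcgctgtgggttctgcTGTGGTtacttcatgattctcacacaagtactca

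The Il17a window held 1 nuclear receptor half-site, 120 to 115 bases before the start, and 1 Runx core, 52 to 47 bases before it. The Il23r window held 2 nuclear receptor half-sites, 229 to 224 and 66 to 61 bases before the start, and no Runx core. The Gzma window held 1 Runx core and the Gzmb window 2, and neither held the nuclear receptor half-site. Of 8 members with a promoter entry, 3 held the nuclear receptor half-site (Il17a, Il23r and Ncr1), 6 held the Runx core (Gzma, Gzmb, Prf1, Nkg7, Il17a and Ncr1) and 1 (Nkg7) held the T-box core GGTGTGA or its reverse complement. Over all 32851 promoters of the same length the shares were 14%, 14% and 3.33%. Such letter matches describe the sequence and do not show binding.

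Transcripts of the 9 genes came almost wholly from the lymphocyte cluster, which held 2.98% of kept cells. It held between 86.9% (Nkg7) and 97.2% (Ncr1) of all UMIs of a gene. Within T plus NK cells, the T cells gave 100% of the UMIs of Il17a (518 UMIs) and Il23r (21), 74.1% of Ifng, 55% of Il2rb, 51.4% of Nkg7, 37.0% of Gzmb, 15.3% of Prf1, 13.3% of Ncr1 and 5.34% of Gzma. Outside the cluster the most prominent sources were neutrophils for Nkg7, at 62.1 CPM (35 UMIs), and the B lineage cells of mouse 5 for Il17a, at 262 CPM (11 UMIs). In endothelial cells, which should lack these genes, the share of cells with a UMI after thinning to 1000 UMIs was at most 0.957% (Prf1, mouse 6, median 2011 UMIs before thinning), and among cells of the tumor clusters it reached 1.66% for Gzma in mouse 6.

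**Figure D1:**
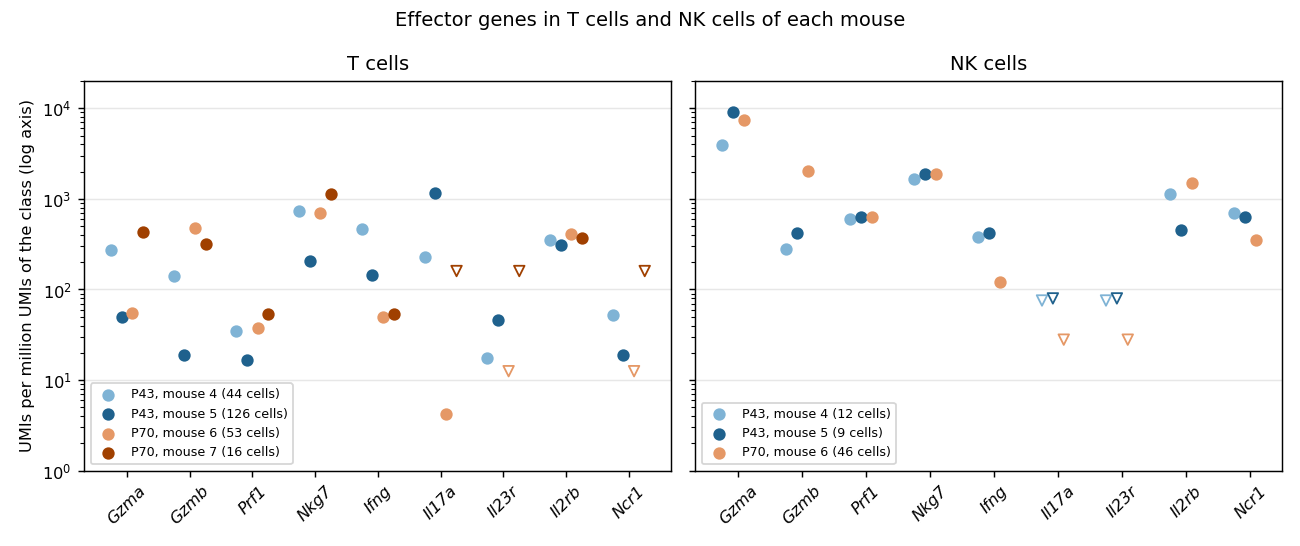
Level of each of the 9 genes in T cells (left) and NK cells (right), as CPM of the class on a log axis, with 1 point per mouse (blue, P43; orange, P70). Open triangles mark the level that a count of 0 allows, and the single NK cell of mouse 7 is not drawn; Il17a and Il23r have points in the T cells of the P43 mice and only triangles in NK cells.

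The granule genes were highest in NK cells. Gzma, the gene of the tryptase granzyme A (chr13:113093825-113100981), stood at 3904, 9059 and 7419 CPM in the NK cells of mice 4, 5 and 6 and at 271, 50.3 and 54.3 CPM in their T cells, so that all NK values lay above all T values. NK cells exceeded T cells 14.4-fold, 180-fold and 137-fold within these mice. In the T cells of mouse 4 all 31 Gzma UMIs came from 1 cell, and in both P43 mice every Gzma UMI of the T cells (31 and 21) lay in the cells that also held an NK list UMI.

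Prf1, the gene of perforin (chr10:61297833-61304680), was at 604, 638 and 633 CPM in NK cells of mice 4, 5 and 6 and at 34.9, 16.8 and 37.6 CPM in their T cells. The ratios were 17.3, 38.1 and 16.8, and NK levels were nearly level across the mice. Ncr1, the NKp46 receptor gene (chr7:4337724-4345164), was at 705, 638 and 354 CPM in NK cells and at 52.4, 19.1 and 0 CPM in T cells, a ratio of 13.5 and 33.3 in mice 4 and 5 and at least 28.2 in mouse 6, where the T cells held no UMI. All 14 Ncr1 UMIs of T cells came from the P43 mice.

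Gzmb, the gene of the aspartate-cleaving granzyme B (chr14:56258838-56262260), lies in a cluster of related granzyme genes whose reads may be shared. It was at 277, 425 and 2048 CPM in NK cells and at 140, 19.1 and 480 CPM in T cells of mice 4, 5 and 6, and NK and T values overlapped across mice although NK cells were higher within each. Nkg7 (chr7:43437073-43438249) was at 1662, 1886 and 1880 CPM in NK cells against 742, 206 and 706 CPM in T cells, without overlap. Il2rb (chr15:78479256-78495271) was at 1133, 452 and 1499 CPM in NK cells against 349, 306 and 409 CPM in T cells, again without overlap.

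Ifng, the gene of interferon-γ (chr10:118441046-118445892), was found in both classes, with 378, 425 and 121 CPM in NK cells and 463, 144 and 50.1 CPM in T cells of mice 4, 5 and 6. T cells were higher in mouse 4 and NK cells in mice 5 and 6. Il17a and Il23r had no UMI in any of the 68 NK cells, which allows up to 75.6, 79.7 and 27.9 CPM in mice 4, 5 and 6. Against these limits Il17a was at least 3.0-fold higher in T cells than in NK cells of mouse 4 and at least 14.7-fold higher in mouse 5.

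Mice 4 and 6, 1 of each age, had at least 10 cells of both classes, and their sums were compared within the mouse. Of 7 members that could be tested, 6 were higher in NK cells at an adjusted p under 0.05 and 1 was not called, beside 3.18% of 2076 genes called higher and 2.17% called lower in NK cells. The filter on low counts keeps genes that are high in 1 class alone. Prf1 and Ncr1 passed it through their NK levels, whereas Il17a and Il23r, with no UMI in NK cells, were not tested. The count of members called thus depends in part on this filter. The log2 fold changes (NK over T ± SE, edgeR's quasi-likelihood test with Benjamini-Hochberg adjustment) were 5.26 ± 0.31 for Gzma (adjusted p = 1.09e-58), 4.65 ± 0.53 for Ncr1 (6.35e-16) and 3.95 ± 0.48 for Prf1 (8.23e-14). Those of Il2rb, Gzmb and Nkg7 were 1.69 ± 0.39 (8.03e-04), 1.63 ± 0.44 (0.00672) and 1.19 ± 0.34 (0.0111). Ifng differed by 0.22 ± 0.44 and did not pass (0.882). This fit has 1 residual degree of freedom, so its small p-values rest mainly on dispersions shared over genes and not on the spread between animals. Without the mouse as a block, 5 genes in all passed instead of 111 and Prf1 was the member among them (adjusted p = 0.0378, against 0.0588 for Gzma and 0.216 for Ncr1, same edgeR test). With mouse 5 and its 9 NK cells added, a setting chosen after the data had been seen, the differences of Gzma, Prf1, Ncr1, Gzmb and Nkg7 were 6.06, 4.39, 4.83, 2.29 and 1.82 and remained called, while that of Il2rb was 1.36 with an edgeR adjusted p of 0.0565. Prf1 passed in all 8 alternatives, Gzma in 7 and Ncr1 in 6. Without the filter, Il17a was called lower in NK cells (-6.17, edgeR adjusted p = 0.0352), while Il23r did not pass (-2.63, 0.992). Gzmb, Nkg7 and Il2rb no longer passed with DESeq2 (adjusted p = 0.428, 0.428 and 0.0861), nor with edgeR at gates of 2 UMIs (adjusted p = 0.15, 0.13 and 0.108) or over all kept cells (0.399, 0.401 and 0.568), and Ncr1 did not pass with DESeq2 (0.499).

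Part of the other genes of the killing program were higher in NK cells as well, on a list chosen with earlier results of these data known. Over all 2076 tested genes, 3.18% were called higher in NK cells and 2.17% lower. Of 30 genes on a cytotoxic list without the members, 21 could be tested, 12 were higher in NK cells and none lower, with a median log2 difference of 1.76 against -0.05 over all genes tested. Cd8a and Cd8b1 of this list had no UMI in NK cells and were not tested, so the filter on low counts shaped this count as well. Those called were the granzyme inhibitor genes Serpinb9 (2.65) and Serpinb6b (2.31), the death ligand gene Fasl (1.52), the receptor genes Klrd1 (1.76), Klrk1 (2.18) and Slamf7 (1.61), the chemokine genes Ccl3 (2.77), Ccl4 (3.47), Ccl5 (1.89) and Xcl1 (2.95), and the transcription factor genes Zeb2 (1.48) and Eomes (4.23), the last of which belongs to the NK gate. Without the mouse as a block, 2 genes in all were called higher in NK cells, Prf1 among them, so nearly all of these 12 calls were lost. With DESeq2, 9 genes in all were called higher, Gzma and Prf1 among them. On the type 17 list, 11 of 25 measured genes could be tested. The IL-7 receptor gene Il7r (-2.26), Rora (-1.82) and Maf (-1.70) were lower in NK cells, and the chemokine receptor gene Ccr2 (1.34) was higher.

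**Figure D2:**
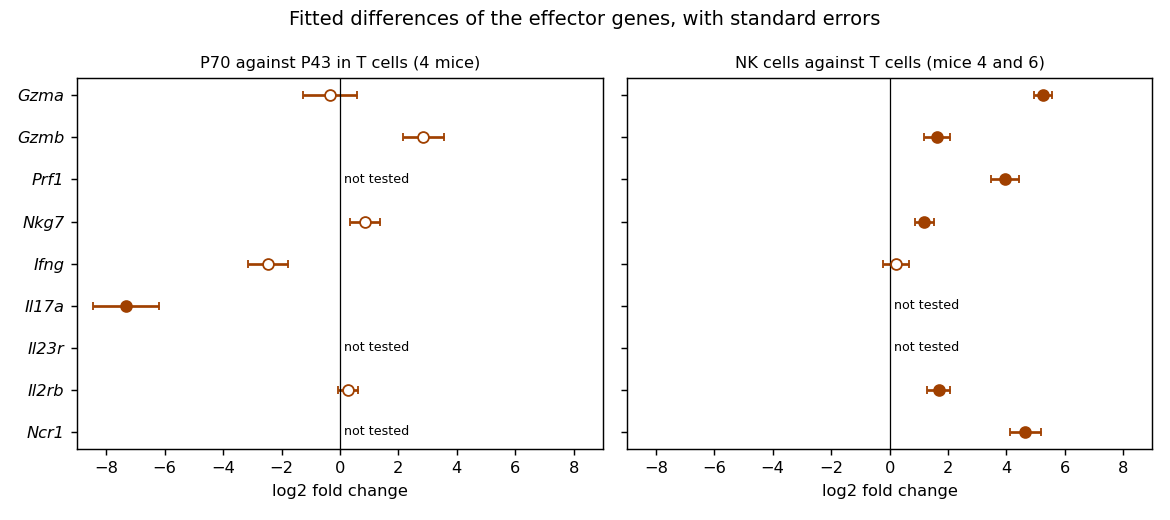
Fitted log2 fold changes with standard errors for P70 against P43 in T cells of 4 mice (left, positive values higher at P70) and for NK against T cells of mice 4 and 6 (right, positive values higher in NK cells). Filled points passed an adjusted p under 0.05 (edgeR's quasi-likelihood test); Il17a at -7.32 is the filled point on the left, and Gzma at 5.26 is the highest on the right.

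Of the 9 genes in T cells, the one called with age was Il17a (chr1:20730905-20734496), the gene of the cytokine that defines type 17 cells. Il17a stood at 227 CPM (26 UMIs) and 1175 CPM (491 UMIs) in the T cells of the P43 mice 4 and 5, and at 4.18 CPM (1 UMI) and 0 (at most 160 CPM) in those of the P70 mice 6 and 7. Both P43 values lay above both P70 values, although the limit for mouse 7 reaches close to the level of mouse 4. The log2 fold change was -7.32 ± 1.14 (P70 over P43, edgeR's quasi-likelihood test with Benjamini-Hochberg adjustment, adjusted p = 0.0112). As the P70 mice held 1 UMI together, the size is also given as a pooled ratio, 517 against 1 UMI or a 251-fold higher level at P43 (95% interval 44.8 to 9921, which covers counting error only). Most of these UMIs are from mouse 5, and mouse 4 alone was 58.6-fold above the pooled P70 level (9.63 to 2402).

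Of 6 members that could be tested for age in T cells, 1 (Il17a) was called lower at P70 and none higher, beside 0.558% of 3044 genes called lower and 0.723% called higher. Prf1, Il23r and Ncr1 were too low to be tested. Il17a itself passed the filter on low counts through its P43 levels alone. The Il17a call was lost without mouse 6 (log2 fold change -10.1, edgeR adjusted p = 0.537), when the 16 T cells of mouse 7 alone stood for P70 and no gene in all was called, and when T cells were taken from all kept cells without clusters (-6.67, adjusted p = 0.122). It was kept in the other 9 of 11 alternatives. Mouse 5 held 94.8% of the Il17a UMIs of T cells and 52.7% of the T cells, and without mouse 5 the fold change was -5.58 and still called, as it was without mouse 4 (-8.02) or mouse 7 (-7.21).

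The Il17a UMIs were spread over many cells. In mouse 5, 51.6% of T cells held at least 1 UMI, with a median of 5 and a maximum of 21 UMIs in a positive cell, and in mouse 4 the share was 15.9% with a median of 3. In mice 6 and 7 it was 1.89% and 0. Thinned to 1000 UMIs per cell, the shares were 16.2% (95% exact binomial interval 6.19 to 32.0), 42.1% (33.3 to 51.2), 0 of 52 cells and 0 of 9 cells. The mice of the 2 ages thus did not overlap at equal depth, but the 9 remaining cells of mouse 7 allow a share of up to 33.6%. No Il17a UMI came from a T cell that held an NK list UMI.

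Il23r, the gene of the IL-23 receptor chain (chr6:67422932-67491855), followed the same order at a low count. It had 2 and 19 UMIs in the T cells of mice 4 and 5 (17.5 and 45.5 CPM) and none in mice 6 and 7. The pooled P43 level was at least 3.39-fold higher than the limit of 11.6 CPM that no UMI in 258122 P70 UMIs allows. Of the 21 UMIs, 90.5% were from mouse 5, and the 2 of mouse 4 lay in 1 cell.

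Part of the type 17 list, which was chosen with earlier results of these data known, was lower at P70 as well. Over all 3044 tested genes, 0.558% were called lower and 0.723% higher. Of 29 genes on the list, 25 were among the features and 15 could be tested, of which 6 were lower at P70 and none higher, with a median log2 fold change of -1.95 against -0.05 over all genes, while 9 did not pass. No gene in all passed without mouse 6 or with gates over all kept cells, so these 6 calls were lost in both. Those called were the chemokine receptor gene Cxcr6 (-2.75), the membrane protein genes Tmem176a (-5.13) and Tmem176b (-5.67), the leukotriene receptor gene Ltb4r1 (-7.70), the neuropeptide receptor component gene Ramp1 (-3.36) and the protease inhibitor gene Serpinb1a (-4.22). The filter on low counts keeps genes that are high at 1 age alone, and Ltb4r1, Ramp1 and Serpinb1a passed it through their P43 levels. The count and the median of the list are thus no separate support for the Il17a result. In the T cells of mice 4, 5, 6 and 7, Tmem176b stood at 279, 594, 4.18 and 53.3 CPM and Cxcr6 at 419, 694, 79.4 and 107 CPM, without overlap of the ages. Over all lymphocytes, 3 of 16 tested genes of the list were called lower (Cxcr6, Ramp1 and Serpinb1a), beside 0.311% of 4497 genes. The list median there was -0.96. Tmem176a, Tmem176b and Ltb4r1 did not pass in that comparison (edgeR adjusted p = 0.158, 0.162 and 0.285).

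Cd163l1, a scavenger receptor gene known from IL-17-producing γδ T cells, was at 78.6, 783, 41.8 and 0 CPM. Its log2 fold change of -3.58 did not pass (edgeR adjusted p = 0.114). The tyrosine kinase gene Blk was at 34.9, 278, 4.18 and 0 CPM. Il17f was at 17.5 and 47.9 CPM at P43 and had no UMI at P70. Il22 and Il21 had no UMI in T cells of any mouse. The constant genes of the T cell receptors, which would tell γδ from αβ T cells, were not analysed here.

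**Figure D3:**
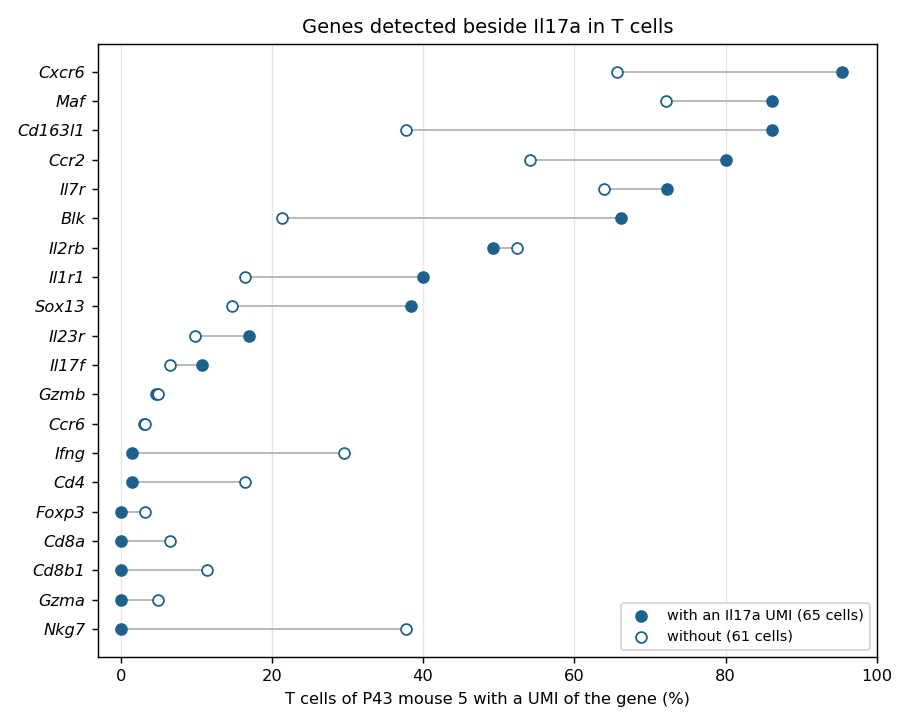
Share of T cells of P43 mouse 5 with a UMI of each gene, in the 65 cells with an Il17a UMI (filled) and the 61 cells without (open). Cd163l1 lies far to the right in cells with Il17a (86.2% against 37.7%), whereas Nkg7 was found in 0% against 37.7%.

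Within mouse 5 the Il17a-positive T cells could be set beside the other T cells at near equal depth (65 cells with a median of 3145 UMIs, 61 cells with 3304). For this, 10 genes were picked for their role from the type 17 list, itself chosen with earlier results of these data known. Of these, 9 had a larger share among cells with Il17a in mouse 5 (all but Ccr6, 3.08% against 3.28%). In mouse 4 it was also 9 (all but Il1r1, 0% against 2.70%). No rate over all genes is given beside these counts, which are a description. In mouse 4, with 7 Il17a-positive T cells, the larger shares of Il17f, Blk, Ccr6 and Sox13 rested on 1 such cell each. In mouse 5, Cd163l1 was in 86.2% against 37.7%, Cxcr6 in 95.4% against 65.6% and Blk in 66.2% against 21.3%. Il23r was in 16.9% against 9.84% in mouse 5 and in 0% against 2.70% in mouse 4. Several of the cytotoxic members had smaller shares beside Il17a in mouse 5, Nkg7 in 0% against 37.7%, Ifng in 1.54% against 29.5% and Gzma in 0% against 4.92%. Cd4 was in 1.54% against 16.4%, Cd8a in 0% against 6.56% and Cd8b1 in 0% against 11.5% of these cells. Most cells with Il17a, and most cells without it, thus had no detected UMI of either coreceptor. Il2rb was in 49.2% against 52.5% and Gzmb in 4.62% against 4.92%. In mouse 4, none of 7 Il17a-positive T cells held Nkg7, against 64.9% of the other 37. These shares describe sparse counts in cells of 1 library each, and their differences were not tested.

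Gzmb in T cells had higher values at P70, a difference that did not pass the test. Its level was 140 and 19.1 CPM in mice 4 and 5 and 480 and 320 CPM in mice 6 and 7, without overlap of the ages. The log2 fold change was 2.86 ± 0.70 (edgeR's quasi-likelihood test with Benjamini-Hochberg adjustment, adjusted p = 0.0788), and it passed in 6 of 11 alternatives. Among them were the fits without possible doublets (3.53, edgeR adjusted p = 0.00977) and in T cells without an NK list UMI (4.63, edgeR adjusted p = 6.22e-06). The latter setting was added after the data had been seen. Of the 115 Gzmb UMIs of mouse 6, 89 came from 1 T cell, which held no NK list UMI and so stayed in that setting. There, mouse 6 held 113 Gzmb UMIs and mouse 7 held 2 (158 CPM, below its limit of 238 CPM). No fit was made without the cell of 89 UMIs. Leaving out the cell with most Gzmb UMIs in every mouse, the levels were 89.4, 14.5, 113 and 240 CPM, which kept the order of the ages at a smaller distance.

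Thinned to 1000 UMIs, Gzmb was found in 10.8% and 1.59% of T cells of mice 4 and 5 and in 17.3% and 22.2% of those of mice 6 and 7. Unthinned shares were 15.9%, 4.76%, 30.2% and 25%. At either depth the ages did not overlap, and an exact permutation test of the shares over 2 mice against 2 cannot go below 0.333 (unthinned p = 0.333). In mouse 6, the 16 T cells with Gzmb held Nkg7 in 75%, Prf1 in 31.2%, Cd8a in 31.2% and the proliferation gene Mki67 in 31.2% of cells, against 43.2%, 5.41%, 10.8% and 10.8% of the other 37 cells. Their median depths were 4068 and 3014 UMIs. In the same cells of mouse 6, Cd4 was in 43.8% against 51.4% and Ifng in 12.5% against 13.5%. In mouse 7, the 4 T cells with Gzmb held Nkg7 in 25%, against 58.3% of the others. None of them held Prf1, Cd8a or Mki67, against 8.33%, 16.7% and 8.33% of the others, while Cd8b1 was in 50% against 25%. These differences were not tested.

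**Figure D4:**
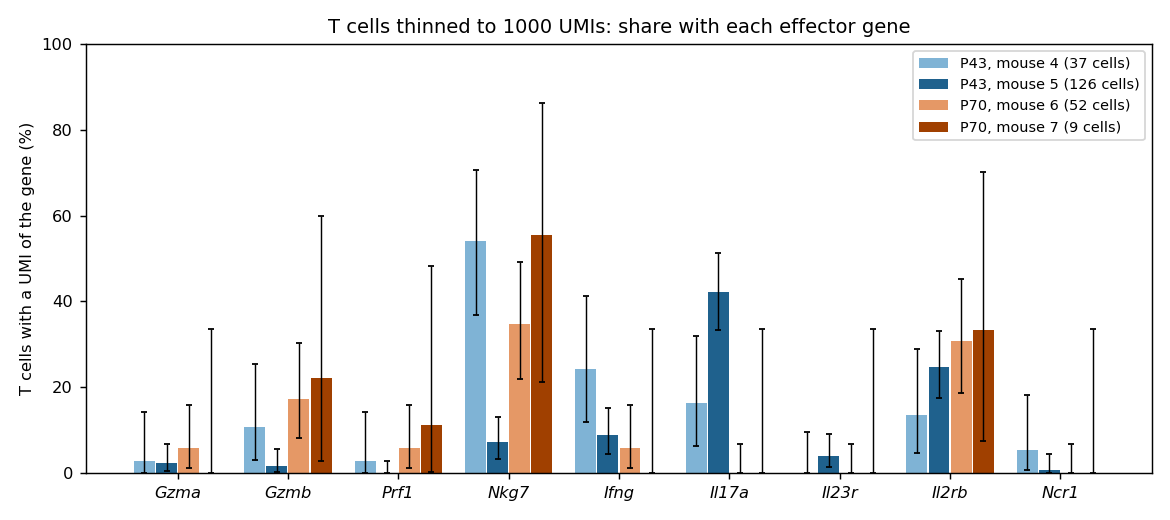
Share of T cells with at least 1 UMI of each gene after thinning every cell to 1000 UMIs, as bars per mouse with 95% exact binomial intervals. Il17a reached 42.1% in P43 mouse 5 and 16.2% in P43 mouse 4 and was not detected at P70, while Gzmb was lowest in mouse 5 at 1.59%.

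Of the other granule genes of T cells, Gzma and Nkg7 had values that overlapped between the ages. Gzma was at 271 and 50.3 CPM at P43 and 54.3 and 426 CPM at P70, with a log2 fold change of -0.35 ± 0.92 (edgeR adjusted p = 0.959) that turned positive without mouse 4 (1.01) or mouse 6 (1.36). In mice 4 and 7 a single T cell held all its UMIs. Prf1 had 4, 7, 9 and 1 UMIs in mice 4 to 7, or 34.9, 16.8, 37.6 and 53.3 CPM, without overlap of the ages. Its value in mouse 7 rested on 1 UMI, where a count of 0 would allow 160 CPM, and Prf1 was too low to be tested. Nkg7 was at 742, 206, 706 and 1119 CPM in mice 4 to 7, so that P43 and P70 values overlapped (log2 fold change 0.86 ± 0.52, edgeR adjusted p = 0.575). Without mouse 4 it was called higher at P70 (1.95, edgeR adjusted p = 0.0484).

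Ifng had the opposite order to Gzmb. It was at 463 and 144 CPM in the T cells of mice 4 and 5 and at 50.1 and 53.3 CPM in those of mice 6 and 7, without overlap, and the P70 value of mouse 7 rested on 1 UMI. The log2 fold change of -2.46 ± 0.69 did not pass (edgeR adjusted p = 0.133) and passed in 3 of 10 alternatives. Of the Ifng UMIs, 23 of 53 in mouse 4 and 36 of 60 in mouse 5 lay in T cells with an NK list UMI. Without those cells the levels were 400.2, 63.0, 35.0 and 79.2 CPM in mice 4 to 7, so that the ages overlapped, and Ifng was too low to be tested. A count of 0 in mouse 7 would allow 160 CPM, above the level of mouse 5. Thinned shares of T cells with Ifng were 24.3%, 8.73%, 5.77% and 0% in mice 4 to 7, against 36.4%, 15.1%, 13.2% and 6.25% unthinned. T cells with Ifng mostly held Nkg7 as well, in 87.5%, 68.4% and 85.7% of cells in mice 4, 5 and 6, against 35.7%, 9.35% and 47.8% of the cells without Ifng. In mouse 5, Cd163l1 was in 10.5% of Ifng-positive and 72.0% of Ifng-negative T cells.

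Il2rb, which T cells need to respond to IL-2 and IL-15, varied little among the T cells of the mice. It was at 349, 306, 409 and 373 CPM in mice 4 to 7, a narrow range that did not overlap between ages. The log2 fold change was 0.28 ± 0.35 (edgeR adjusted p = 0.844). Ncr1 had 6 and 8 UMIs at P43 (52.4 and 19.1 CPM) and none at P70, where the pooled limit makes it at least 2.26-fold lower. Of these UMIs, 3 in mouse 4 and all 8 in mouse 5 lay in T cells with an NK list UMI. Without those cells, mouse 4 held 3 Ncr1 UMIs (40.0 CPM) and mouse 5 none, so the 2.26-fold bound rests on them. Ranges of CPM that did not overlap between the ages were common in T cells, at 19.2% of tested genes for higher and 23.8% for lower values at P70. Among the 6 tested members, Gzmb and Il2rb lay higher, Ifng and Il17a lower and Gzma and Nkg7 overlapped.

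In NK cells the ages could not be tested as planned, since mouse 5 had 9 and mouse 7 had 1 such cell. Gzmb stood at 277 and 425 CPM in the NK cells of P43 mice 4 and 5 and at 2048 CPM in P70 mouse 6, and was found in 58.3%, 55.6% and 73.9% of cells. Ifng stood at 378 and 425 CPM against 121 CPM, and in 50%, 77.8% and 21.7% of cells. With mouse 6 as the only P70 library, age and animal cannot be told apart in these values. Whether the change with age differs between NK and T cells could not be fitted, because mice 4 and 6 alone leave no residual degrees of freedom.

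Over all 327 lymphocytes, which does not depend on the gates, 8 members could be tested and Il17a was again the 1 called lower, beside 0.311% of 4497 genes called lower and 0.556% called higher. Its log2 fold change was -7.64 ± 1.29 (edgeR adjusted p = 0.0304), and the call was lost without mouse 6. Gzmb (2.85 ± 0.62, edgeR adjusted p = 0.0710) and Ifng (-1.91 ± 0.55, edgeR adjusted p = 0.173) kept their directions without passing. These sums mix the classes, and NK cells were 21.4%, 6.67%, 46.5% and 5.88% of T plus NK cells in mice 4 to 7. A different mix and a different level within a class cannot be told apart in such sums. Over whole libraries, in which fewer lymphocytes and less RNA per lymphocyte cannot be told apart, Il17a was at 2.09, 46.9, 0.0631 and 0.0253 CPM in mice 4 to 7 and Gzma at 14.5, 33.7, 54.2 and 0.202 CPM. No member and 0% of 13973 genes were called there by edgeR. An unadjusted p under 0.05 was found for 466 genes, a smaller share than the 0.05 that no difference would give. DESeq2 called 72 genes, among them Il17a (adjusted p = 1.74e-04), and edgeR called 2138 without mouse 6 and 1625 without mouse 7.

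Among genes of T cell subsets, none of 11 tested passed with age. Cd4 was at 69.8, 47.9, 276 and 53.3 CPM and Cd8a at 17.5, 23.9, 104 and 107 CPM in mice 4 to 7, with log2 fold changes of 2.11 and 2.22 that did not pass (edgeR adjusted p = 0.0699 and 0.114). Foxp3, the factor of regulatory T cells, was at 0, 14.4, 83.6 and 0 CPM. Of 17 tested genes of the cytotoxic list, 1 was called, Tnf (-3.75, edgeR adjusted p = 0.0291), lower at P70, and the list's median of 0.01 lay next to that of all genes. Of 5 tested interferon-γ targets, Cxcl10, a chemokine gene also induced by type I interferon, was higher at P70 (2.78, edgeR adjusted p = 0.0286).

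Partners of the 9 genes were spread over other cells. Il17ra, the receptor chain for IL-17A, was at 173, 157 and 101 CPM in neutrophils of mice 4, 5 and 6 and between 64.9 and 146 CPM in microglia and macrophages, and the second chain gene Il17rc was at 29.7 to 34.5 CPM in mural cells of the 4 mice. Il23a, which encodes the private chain of IL-23, stayed at or below 5.04 CPM in microglia and macrophages, while Il12b, the chain it shares with IL-12, was at 1060 and 1167 CPM in migratory dendritic cells of mice 6 and 7 and had no UMI in those of mouse 4. Ifngr1 was at 505 to 1385 CPM in T cells, and its partner gene Ifngr2 was at 153 to 202 CPM in microglia and macrophages against 0 to 16.7 CPM in T cells. Il1b, a cytokine gene that drives type 17 cells, was at 827 and 743 CPM in microglia and macrophages at P43 and at 3320 and 2265 CPM at P70.

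Across 34 sums of a cell class in a mouse with at least 20 cells, 4 of them of T or NK cells, each member was set beside all genes with at least 20 UMIs by Pearson's r of log2(CPM + 10). Because these few lymphocyte sums set the pattern and share libraries, r is a description with no test. Il17a was most like Aqp3 (0.98), a water and glycerol channel gene, Actn2 (0.98), an actinin gene, and Cd163l1 (0.96). Actn2 was called lower at P70 in T cells (-8.71, edgeR adjusted p = 0.00946). It was picked for its likeness to Il17a over sums that hold T cells of both ages, so this call is no separate support. Il23r was most like Sit1 (0.86), Il17f (0.85) and Tdrd9 (0.84).

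Among the cytotoxic members, Gzma was most like Prf1 (0.98), Klra7 (0.97) and Klrb1c (0.96), and Ncr1 was most like Styk1 (0.99), Klra9 (0.98) and Klra7 (0.98). The Klra genes are near-identical copies, so reads may be split among them. Gzmb was most like Crtam (0.97), Fasl (0.96) and Sh2d1a (0.94), Nkg7 like Il2rb (0.98), Txk (0.96) and Gimap3 (0.95), and Ifng like Skap1 (0.96), Cd160 (0.96) and Gata3 (0.95).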

How the data were processed

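The deposited values are raw UMI counts per gene and barcode, which the authors made with Cell Ranger 6.0.2 from 3′ libraries aligned to mm10 with human MYCN and luciferase added, without normalization. Barcodes needed at least 200 genes (of those in at least 3 cells of a library), less than 25% mitochondrial UMIs and no more than 40000 UMIs. Cells were clustered with Seurat 5.3.0 (2000 variable genes without the 9 members, anchor integration, 30 components, resolution 0.5, seed 1) into 19 clusters. Levels are counts per 1000000 UMIs (CPM) of the summed cells of a mouse. Sums of mice with at least 10 cells were tested with edgeR 4.0.16 (TMM, filterByExpr, quasi-likelihood test, Benjamini-Hochberg limit 0.05, SE from the F statistic) in R 4.3.3, ages without a covariate and NK against T cells with the mouse as a block, since both sums come from the same animal (correlation of their deviations 0.33). Each age has 2 mice, and p-values of the age comparisons rest on the spread between these animals, which edgeR moderates with dispersions shared over genes. Those of NK against T cells come from 2 mice with 1 residual degree of freedom. They rest mainly on the shared dispersions and do not measure the spread between animals. Shares were computed after thinning cells to 1000 UMIs, which left out 7, 0, 1 and 7 T cells of mice 4 to 7, and tested by exact permutation over mice with scipy 1.17.1 where each age had 2 mice with 10 cells. Intervals (95%, Clopper-Pearson) and limits of a count of 0 (3 UMIs) cover counting error only. No doublet caller was run, and cells with at least 2 UMIs of other classes' markers were left out as an alternative. The other alternatives were DESeq2 1.42.0, no filter on genes, gates of 2 UMIs, gates without clusters, under 10% mitochondrial UMIs, thinning to 500 or 2000 UMIs, no thinning, no block and leaving out each mouse. Genes named are the 9 members, the genes of fixed lists, and for each member the 3 most like it. The members and lists were chosen with earlier results of these data known. Libraries of other ages were not analysed here, and some genes are not reported here. Scripts were tested on simulated data.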

Additional observations from a re-analysis of the deposited data

How the results depend on the processing

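Counts of genes called in all moved most. For age in T cells, 39 genes were called, against 11 with DESeq2, 94 without the filter on low counts, 0 with gates over all kept cells and 92 in T cells without an NK list UMI (added after seeing the data). For NK against T cells, 111 were called, against 11 with DESeq2, 29 with gates of 2 UMIs, 59 without possible doublets and 59 with at least 5 cells of both classes in a mouse (added). Over all lymphocytes 39 became 10 with DESeq2 and 147 without the filter, and over whole libraries 0 became 72 with DESeq2. Leaving out each mouse gave 0 (without mouse 6) to 183 (without mouse 7, and 170 without mouse 4) for age in T cells, 0 to 242 over all lymphocytes (199, 78, 0 and 242 without mice 4, 5, 6 and 7) and 0 to 2138 over whole libraries (2138 without mouse 6, 1625 without mouse 7). The causes were not tested.

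Without the replicate block, NK against T cells gave 5 calls, and the log2 difference of Ifng turned to -0.20. No paired analysis was possible because the ages share no replicate numbers, so a block was fitted only between classes of the same mouse.

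Of 224 member fold changes under an alternative, 165 kept their direction and side of the threshold, 26 came to pass, 19 no longer passed and 14 turned. Besides Ifng, the turned values arose on leaving out 1 mouse: in T cells Gzma ranged from -1.36 to 1.36 and Il2rb from -0.12 to 0.41; over all lymphocytes Gzma from -1.78 to 1.31, Prf1 from -1.66 to 1.44 and Ncr1 from -1.86 to 0.53; over whole libraries Gzma from -6.71 to 1.52, Gzmb from -3.70 to 3.49, Prf1 from -6.31 to 1.43, Nkg7 from -4.06 to 1.31, Il2rb from -3.86 to 1.11 and Ncr1 from -6.42 to 0.14. NK cells as a share of kept cells ranged from -0.461 to 1.19 percentage points (P70 minus P43) and as a share of T plus NK cells from -8.17 to 32.4, the lowest without mouse 6. Calls gained on leaving out 1 mouse include Nkg7 in T cells (0.08 to 1.95, passing without mouse 4). In NK against T cells, Gzmb, Nkg7 and Il2rb no longer passed with DESeq2, gates of 2 UMIs, gates over all kept cells or without the block, and Ncr1 with DESeq2 (0.499) or without the block. Age in NK cells gave no fit except with gates over all kept cells, the interaction of age and class gave none, and NK against T cells gave none without mouse 4 or mouse 6, while mice 5 and 7 were not in that fit. The 1 fit of age in NK cells had 1 P70 library and is not reported. Of 72 shares of cells with a member UMI under an alternative, 15 moved by more than a set limit. For T cells the limit was the standard deviation of the 2 P43 mice. For NK cells it was the wider side of the exact binomial interval of mouse 6, which covers counting error only. With 16 T cells in mouse 7, a count of 0 there allows up to 160 CPM.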

Other observations

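In all, 22 genes were called higher in T cells at P70 (edgeR's quasi-likelihood test with Benjamini-Hochberg adjustment), Cxcl10 of the interferon-γ targets among them. The following, outside the 9 genes and their lists, were named after their values had been seen. They include genes of costimulatory and checkpoint receptors, Tnfrsf4 (OX40, log2 fold change 4.95 ± 0.59), Tnfrsf9 (4-1BB, 3.75 ± 0.47), Tnfrsf18 (GITR, 2.94 ± 0.51), Ctla4 (2.97 ± 0.55) and Cd27 (2.39 ± 0.50). They also include genes known to be induced by interferon, Ifit3 (4.28 ± 0.66), Ifit1 (3.04 ± 0.51), Zbp1 (2.86 ± 0.41), Xaf1 (2.36 ± 0.41) and Isg15 (2.22 ± 0.36), while the level of Ifng itself was lower at P70 without passing. Jun (-2.94 ± 0.45) and Fosb (-2.79 ± 0.55), early response genes that also rise when tissue is dissociated, were called lower at P70. None of these genes was called without mouse 6 or with gates over all kept cells, and no test was made of whether they belong together.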
